A study of Mus musculus with 16 samples.

Results

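Mouse embryonic fibroblasts (MEFs) carrying a knockout (KO) of Actg1, the gene of gamma-actin, were compared with wild type MEFs by RNA sequencing, and the pathways and gene families outside the actin genes are described here. The comparison uses 4 of the 16 libraries of the series, 2 per group, and 21589 of the 21615 genes of the MEF table, those with a mean value of at least 1 over its 6 libraries. The remaining pair of MEF libraries came from cells without the Actg1 locus (locus deletion), and they are given beside the KO as another genotype. The labels give no age, strain, treatment or clone for any MEF group, so whether the KO is 1 clone is not known, and they do not say whether libraries 1 and 2 of a group came from separate cultures. What the p-values measure is therefore the spread between libraries, and it may be technical only. The series asked how a mutant gene alters the expression of genes related to it.

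Gamma-actin and beta-actin are the actins of nonmuscle cells, and they form the filaments of the cortex, of lamellipodia and of stress fibres. Actin also reports on itself: free monomers hold the coactivator MRTF in the cytoplasm, and when monomers are used up MRTF enters the nucleus and, with SRF, drives contractile and cytoskeletal genes. Stress fibres pull on the matrix through integrins at focal adhesions, and fibroblasts answer to that pull in what they secrete: collagens, fibronectin, proteoglycans, proteases and cytokines.

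Levels are normalised read counts, given for libraries 1 and 2 of a group in that order. Differences are in log2(value + 1) with their standard error (SE), n = 2 libraries per group, from limma across all genes. A gene is said to have risen or fallen only at an adjusted p below 0.05, and fold values are ratios of group means. Actg1 (ENSMUSG00000062825, chromosome 11, 120345690 to 120348542 on the minus strand of GRCm38) was 5737 and 5672 in wild type, 1004 and 1026 in the KO and 25 and 15 in the locus deletion, so that 17.8% of the wild type level was left in the KO (log2 difference -2.49, SE 0.19, adjusted p = 5.3e-05). Of the 3 nearest tested genes on each side of Actg1, Bahcc1 fell (1278 and 1201 in wild type and 560 and 691 in the KO, log2 difference -0.99) and the other 5 did not pass the test. Among the other actins, Actb was 103506 and 100152 in wild type and 113713 and 122792 in the KO (adjusted p = 0.06), Actg2 went from 70 and 92 to 4645 and 5064, and Acta2 from 15819 and 16328 to 26533 and 28811.

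The summed values of the MEF libraries ran from 20305511 to 22094490, an estimated 19200000 to 24500000 reads each. The KO libraries stood apart from all others: on log2 values of genes with a mean of at least 50, KO and wild type libraries correlated at 0.891 to 0.894, KO and locus deletion at 0.842 to 0.847, and libraries of 1 group at 0.994 to 0.996, and the first principal component (77.5% of the variance) placed the KO at 72.3 and 72.5, wild type at -17.6 and -18.2 and the locus deletion at -54.4 and -54.5. Any other difference between the cell lines cannot be told apart from the loss of Actg1. Of 14 fibroblast markers, all in the table, 6 rose and 5 fell, and their summed level was 235350 to 241888 in wild type, 304563 to 321006 in the KO and 182872 to 201424 in the locus deletion. Thy1, a surface marker of many fibroblasts, was near the floor everywhere (11 and 3 in wild type, 15 and 22 in the KO and 5 and 6 in the locus deletion), and the proteoglycan genes Dcn and Lum were near 0 in wild type and the locus deletion. The smooth muscle markers (10 of 10 in the table) summed to 18702 to 19086 in wild type, 34922 to 37797 in the KO and 57509 to 60649 in the locus deletion, mostly through Acta2. Macrophage markers (7 of 10 in the table) summed to 418 to 453 in wild type and 256 to 293 in the KO, endothelial markers (7 of 9) to 170 to 187 and 378 to 392, and epithelial markers (5 of 10) to 190 to 209 and 215 to 244. Of the 7 macrophage markers, 4 had a log2 difference above 0 (median 0.07), and only 2 reached a level of 50. Markers of neural crest, neurons and glia (7 of 12) summed to 6404 to 6528 in wild type, 2387 to 2426 in the KO and 3226 to 3732 in the locus deletion, and 4 of them fell and none rose. Cartilage and bone markers (8 of 14) summed to 3605 to 3855 in wild type and 5258 to 5317 in the KO, cardiac muscle markers (6 of 10) to 72 to 78 and 256 to 294, skeletal muscle markers (5 of 12) to 270 to 283 and 236 to 267, and adipocyte markers (3 of 9) to 132 to 159 and 210 to 232. Of the 5 skeletal muscle markers, 4 had a log2 difference above 0 (median 2.20). Only 1 of them reached a level of 50 in a wild type or KO library, so the sum mostly follows that gene. The part of cell make-up in the results was not tested, and in bulk RNA fewer cells of a type and less RNA per cell cannot be told apart.

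Of the 21589 genes, 4455 (20.6%) rose and 4126 (19.1%) fell in the KO against wild type, 39.7% in all, and the median log2 difference over all genes was 0.06. A change of 2-fold or more with the call was met by 2336 genes that rose (10.8%) and 1225 that fell (5.67%). Leaving out 1 library lowered the counts to 2114 and 2270 without KO library 1, to 2061 and 2423 without KO library 2, and to 2898 and 2823 without wild type library 2. Where leaving out 1 of the 4 libraries moves the count of a gene list, or of a subgroup or family, by over 1.5 times, the lowest and highest such count follow it in brackets. The KO and wild type libraries did not overlap for 14789 genes (68.5%), and the same holds for every gene named below as risen or fallen, so absence of overlap sets no gene apart. Against the locus deletion the KO was higher for 5286 genes (24.5%) and lower for 4468 (20.7%). Of 14135 protein-coding genes 25.7% rose and 26.1% fell, and of 1983 processed pseudogenes 3.93% and 5.35%. The plot of gene lists sets 22 lists against the shares over all genes. Of 11229 genes with a mean of at least 50, 24.8% rose and 31.9% fell, so a list near these shares is not set apart by its count.

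**Figure D1:**
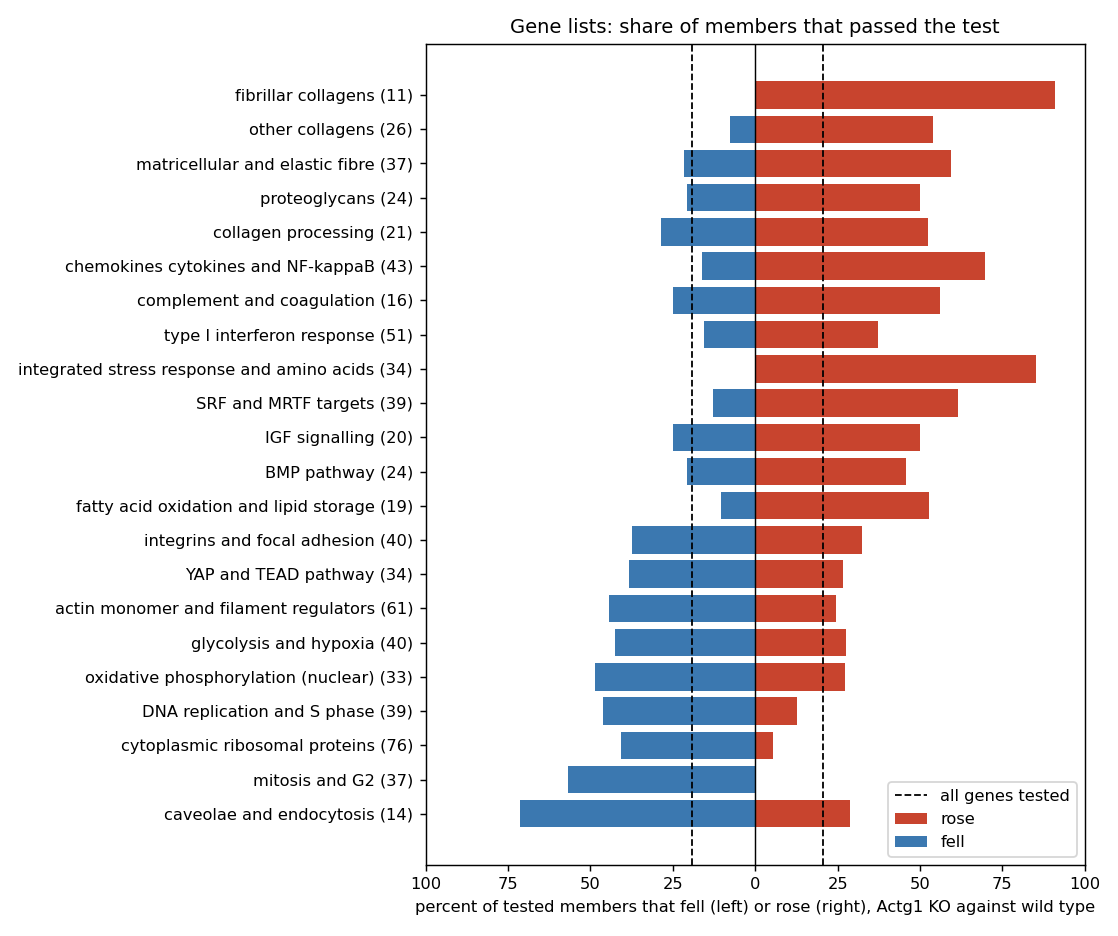
Percent of the tested members of 22 gene lists that rose (bars to the right) or fell (bars to the left) in the Actg1 KO against wild type, with the number tested in brackets. Dashed lines mark the shares over all 21589 genes, 20.6% and 19.1%; fibrillar collagens and the integrated stress response reach farthest to the right, caveolae and endocytosis farthest to the left.

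The changes were not spread evenly over the genome. Over genes with a mean of at least 50 (24.8% rose and 31.9% fell of 11229), the median log2 difference between KO and wild type was -0.85 on chromosome 16 (349 genes, 21 rose and 257 fell) and -0.53 on chromosome 2 (891 genes, 67 rose and 623 fell). Chromosomes 19, 12, 9 and 17 had medians of -0.33, -0.33, -0.32 and -0.29, and chromosomes 8, 15 and 3 had medians of 0.24, 0.23 and 0.18. In KO library 1 and KO library 2 taken alone, chromosome 16 had medians of -0.82 and -0.84 and chromosome 2 of -0.54 and -0.52, and the wild type libraries differed from each other by no more than 0.04 on any chromosome. In the locus deletion chromosome 4 had the lowest median, -0.49, with chromosome 16 at 0.14 and chromosome 2 at 0.11. Parts of a chromosome also differed, by medians of 20 Mb bins. In the KO, chromosome 16 was at -1.03 for 0 to 20 Mb and -0.19 for 40 to 60 Mb. Chromosome 2 was more even, from -0.57 (0 to 20 Mb) to -0.29 (40 to 60 Mb). In the locus deletion, chromosome 7 was at 0.72 for 80 to 100 Mb and chromosome 6 at -0.61 for 0 to 20 Mb. A gene's level can thus move with its chromosome, and counts after centring each chromosome on its own median, an alternative chosen after seeing the data, stand below beside the lists that it moves by over 1.5 times. Centring on a whole chromosome leaves differences between its parts in place. The number of gene copies was not tested.

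**Figure D2:**
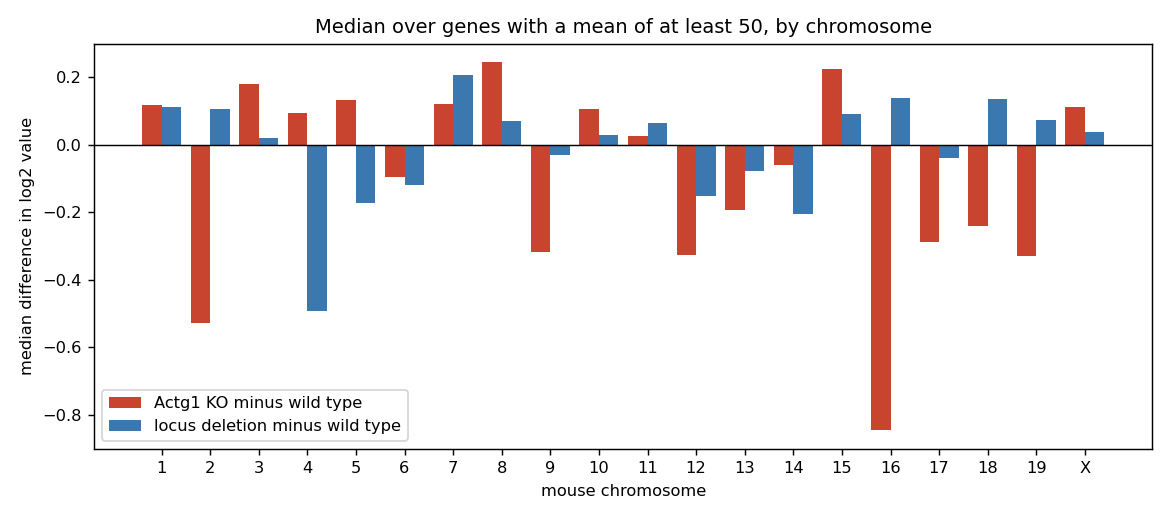
Median difference in log2 value from wild type for genes with a mean of at least 50, by mouse chromosome, in the Actg1 KO (red bars) and the locus deletion (blue bars). Chromosomes 16 and 2 lie at -0.85 and -0.53 in the KO and above 0 in the locus deletion, where chromosome 4 is lowest at -0.49.

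The 15 largest rises among genes above a level of 50 include genes with next to no reads in wild type. Chil1, a secreted chitinase-like protein, was 0 and 1 in wild type, 1153 and 1122 in the KO and 0 and 0 in the locus deletion. Igfbp5, a binding protein of insulin-like growth factors, went from 32 and 24 to 9613 and 10257 (log2 difference 8.43, SE 0.20, adjusted p = 5.5e-07) and was 0 in both libraries of the locus deletion. Brinp3 was at 0 in both wild type libraries and at 502 and 466 in the KO, at least 165-fold higher, and Csmd3 likewise at 219 and 209, at least 72.8-fold. The acute-phase genes Hp (haptoglobin, 1 and 2 in wild type and 552 and 544 in the KO) and Serpina3n (185 and 163 against 0 in both wild type libraries) were among them, with Grpr, the receptor of gastrin-releasing peptide (199 and 182 against 0), and the glutathione transferase gene Mgst1 (2 and 0 in wild type and 604 and 622 in the KO). In all, 82 genes were at 0 in both wild type libraries with a KO mean of at least 20, and 59 of these were at 0 in both libraries of the locus deletion as well.

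The opposite pattern was found for 12 genes, at 0 in both KO libraries with a wild type mean of at least 20. The zinc finger gene Zfp518b was 170 and 161 in wild type, 0 and 0 in the KO and 481 and 509 in the locus deletion, at least 55.4-fold lower in the KO than in wild type, and 4930452B06Rik (231 and 231 in wild type, 0 in the KO) was at least 77.4-fold lower. Mga, a MAX-binding repressor, was 2130 and 2159 in wild type, 15 and 10 in the KO and 2485 and 2681 in the locus deletion. Chmp2b, a subunit of the membrane-remodelling complex ESCRT-III, fell from 1692 and 1708 to 38 and 26 with 1623 and 1785 in the locus deletion. Hapln1, which links hyaluronan to proteoglycans, fell from 422 and 424 to 1 and 4 and was as low in the locus deletion (1 and 2). The signalling regulator Rgs17 fell from 355 and 369 to 2 and 3, with 95 and 97 in the locus deletion.

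Genes of the extracellular matrix included many that were higher in the KO, and the fibrillar collagens nearly all were. Of 11 tested fibrillar collagen genes 10 rose and none fell, with a median log2 difference of 1.59, against 0.06 over all genes and 0.07 for the same genes in the locus deletion. Of the 11, 1 had next to no reads in wild type and the locus deletion. Col1a1 and Col1a2 encode the chains of type I collagen, the main fibre protein of connective tissue. Col1a1 was 15137 and 13197 in wild type, 84930 and 91165 in the KO and 16507 and 15657 in the locus deletion (log2 difference from wild type 2.64, SE 0.08, adjusted p = 1.2e-06, a 6.21-fold rise). Col1a2 went from 10576 and 9576 to 29192 and 31323 (log2 difference 1.59, SE 0.07), with 7989 and 8048 in the locus deletion. Col5a2, part of the type V collagen that starts fibrils, rose 2.69-fold, from 9095 and 8151 to 22894 and 23546. The minor chains Col5a3 (64 and 57 in wild type and 988 and 1012 in the KO) and Col27a1 (54 and 57 in wild type and 297 and 243 in the KO) had log2 differences of 4.03 and 2.26. Col2a1, the collagen of cartilage, stayed near 0 in all libraries and was the member that did not pass the test. Against the locus deletion 8 of the 11 were higher in the KO and none lower.

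Of 26 other collagens 14 (9 to 12) rose and 2 fell (median 0.90), and 2 of the 26 had next to no reads in wild type and the locus deletion. Col4a6, a chain of basement membranes, went from 4 and 14 to 984 and 931 and was 0 and 1 in the locus deletion. Col10a1, known from hypertrophic cartilage, went from 40 and 41 to 418 and 416. The fallen members were Col18a1, the precursor of endostatin, at 4351 and 3846 in wild type, 81 and 70 in the KO and 5278 and 5715 in the locus deletion (log2 difference -5.74), and Col8a1, at 2990 and 2972 in wild type and 1141 and 1046 in the KO. Among 21 genes that fold, trim and crosslink collagen 11 (6 to 10) rose and 6 fell. Serpinh1, the collagen chaperone, rose from 5461 and 5024 to 10904 and 11278, a level the locus deletion also had (10781 and 11736). The procollagen N-proteinase gene Adamts2 rose from 98 and 116 to 335 and 328, and Pcolce2, an enhancer of procollagen cleavage, fell from 1010 and 959 to 212 and 225. Lox, the crosslinking oxidase, was 5362 and 5204 in wild type and 5939 and 5835 in the KO and did not pass the test (adjusted p = 0.17).

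Small leucine-rich proteoglycans, which coat collagen fibrils and set their diameter, include 2 of the 15 largest rises: 7 (3 to 5) of 12 rose and 2 (1 to 1) fell (median 0.99), and 1 fell after centring by chromosome. Decorin, Dcn, went from 17 and 14 to 8037 and 7653, with 12 and 5 in the locus deletion (log2 difference from wild type 8.90, SE 0.32, adjusted p = 2.2e-06). Lumican, Lum, went from 7 and 10 to 4555 and 4508, with 1 and 0 in the locus deletion, and fibromodulin, Fmod, from 5 and 4 to 393 and 390. Biglycan, Bgn, was 39527 and 35352 in wild type and 48179 and 51348 in the KO, a 1.33-fold rise that was lost without KO library 1, KO library 2 or wild type library 2 (adjusted p = 0.11, 0.16 and 0.081) and in a fit without a trend (0.067). Versican, Vcan, a large hyaluronan-binding proteoglycan of provisional matrix, fell from 11483 and 12002 to 8678 and 8591, and perlecan, Hspg2, rose from 7983 and 7012 to 12453 and 13754. Of all 24 proteoglycan genes 12 (6 to 10) rose and 5 (3 to 3) fell.

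Matricellular and elastic fibre genes followed, with 22 of 37 risen and 8 fallen (median 0.69, against -0.26 in the locus deletion), and 27 were higher in the KO than in the locus deletion. Fibronectin, Fn1, the bridge between integrins and collagen, rose 2.01-fold (58597 and 51556 in wild type, 107072 and 114466 in the KO and 45692 and 50081 in the locus deletion). Thbs2, a thrombospondin, rose from 10 and 15 to 736 and 658 (log2 difference 5.72, with 13 and 16 in the locus deletion). Tnn, a tenascin, went from 90 and 85 to 786 and 780, while Tnxb, another tenascin, fell by 2.54 on the log2 scale. Postn, the gene of periostin, fell from 670 and 712 to 257 and 213 and was lower in the locus deletion (43 and 49). Among 14 laminin and basement membrane genes 4 rose and 4 fell: Lama4 rose from 18 and 17 to 971 and 967 and Lama2 fell from 335 and 327 to 97 and 80.

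**Figure D3:**
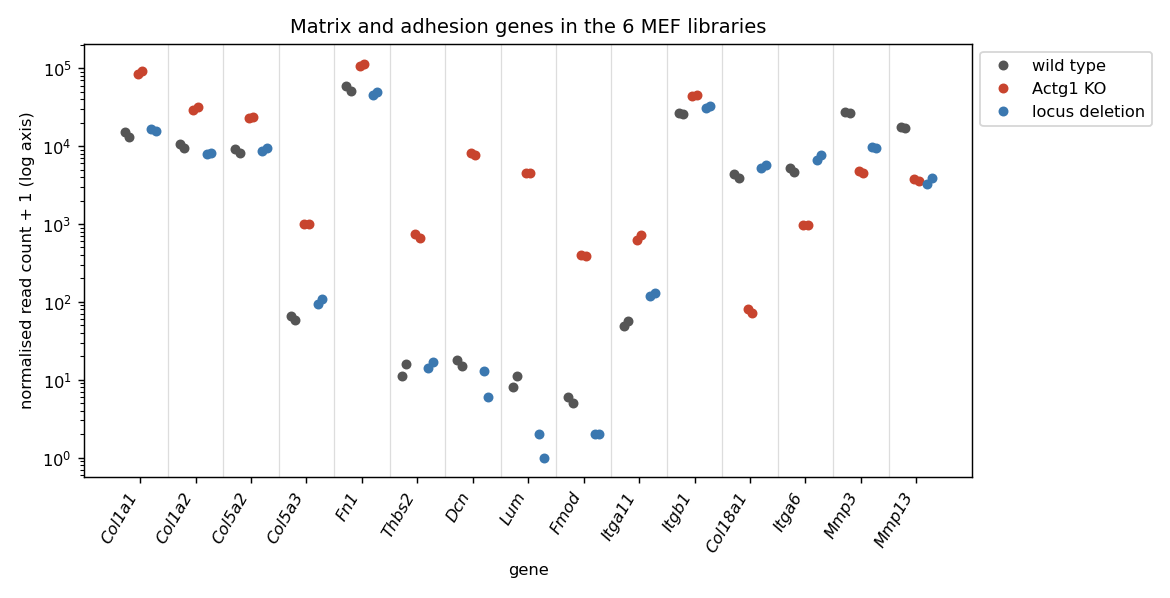
Normalised read counts plus 1 on a log axis for 15 matrix and adhesion genes, 1 point per library, in wild type (grey), Actg1 KO (red) and locus deletion (blue). Col1a1 lies at 84930 and 91165 in the KO against 13197 to 16507 in the other groups, Dcn, Lum, Fmod and Thbs2 are near the bottom of the axis outside the KO, and Col18a1 and Itga6 are lowest in the KO.

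Of 13 matrix metalloprotease genes 4 rose and 4 fell. Mmp3, stromelysin, fell from 27220 and 26992 to 4725 and 4519, with 9782 and 9501 in the locus deletion. Mmp13, an interstitial collagenase, fell from 17420 and 17152 to 3791 and 3563, to the level of the locus deletion (3297 and 3867). Mmp2, a gelatinase, rose 5.54-fold from 545 and 481 to 2790 and 2889. Among ADAM and ADAMTS genes 6 (2 to 2) of 17 rose and 5 fell, with Adamts9 at 3 and 0 in wild type, 399 and 428 in the KO and 0 and 1 in the locus deletion. Of 6 inhibitor genes 4 (0 to 3) rose and none fell, and 1 fell after centring by chromosome. Taking proteases and inhibitors as 1 list of 36, 14 (5 to 8) rose and 9 fell.

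Integrins and focal adhesion genes moved both ways: of 40 tested, 13 (6 to 10) rose and 15 fell (median -0.00). Itga11, a collagen-binding subunit, rose from 48 and 56 to 625 and 717, with 118 and 129 in the locus deletion, and Itgb1, its beta partner, rose 1.7-fold (26586 and 25683 in wild type and 43928 and 44785 in the KO). Itga6, a laminin-binding subunit, fell from 5253 and 4689 to 968 and 970 against 6575 and 7613 in the locus deletion (log2 difference from wild type -2.36), and Itga7, which also binds laminin, fell by 1.99 on the log2 scale. The adaptor gene Lpp, on chromosome 16 (median -0.85 in the KO), fell by 1.04.

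Of 39 targets of SRF and MRTF, the readout of free actin, 24 rose and 5 (3 to 5) fell (median 0.34). The share risen was 61.5%, against 20.6% of all genes and 24.8% of genes with a mean of at least 50. Without KO library 1 or KO library 2 the number risen was 15 or 14. In the locus deletion, compared with the same wild type libraries, the median of the list was 0.45, and directly against the locus deletion 13 members were higher in the KO and 21 lower. By role, 9 of 13 contractile genes and 12 (6 to 9) of 17 cytoskeletal and adhesion genes rose, while of 9 genes of transcription and signalling 3 (1 to 2) rose and 3 fell (median -0.20). Cnn1, calponin, was 513 and 502 in wild type, 2158 and 2191 in the KO and 1207 and 1214 in the locus deletion (log2 difference from wild type 2.10, SE 0.06, adjusted p = 8.6e-07). Lmod1, a leiomodin that nucleates filaments in smooth muscle, was 56 and 58 in wild type, 152 and 130 in the KO and 582 and 650 in the locus deletion, and Ankrd1, a sarcomere-linked repressor, was 127 and 136 in wild type, 420 and 425 in the KO and 849 and 849 in the locus deletion: both rose in the KO and stood higher in the locus deletion. Tpm1, tropomyosin, rose from 26760 and 28053 to 40686 and 42035. Smtn, smoothelin, fell by 0.79 on the log2 scale.

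Of 61 genes that nucleate, sever, cap or bind actin 27 fell and 15 rose. Cfl1, cofilin, the main severing factor, fell from 12845 and 12343 to 7792 and 8414, where the locus deletion had 16076 and 16567. Rises were found for the monomer binder Cap2 from 16 and 9 to 309 and 318, for the formin Fmn2 from 25 and 34 to 585 and 548 and for the formin Daam2 from 343 and 360 to 1593 and 1650. Nckap1, a subunit of the WAVE complex that turns on Arp2/3, fell from 15502 and 15147 to 8101 and 8239. It lies on chromosome 2, with a median of -0.53 in the KO. Among 22 crosslinkers 7 (4 to 7) fell and 3 rose, and 5 rose after centring by chromosome: Ezr, which ties filaments to the membrane, fell from 9091 and 9153 to 3081 and 2874, and Pls1, a plastin, from 308 and 319 to 25 and 19. Of 34 myosin genes 10 (4 to 7) rose and 9 fell.

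The other filament systems changed gene by gene. Vim, vimentin, the intermediate filament of mesenchymal cells, fell from 126213 and 129947 to 41304 and 43759, with 89417 and 101228 in the locus deletion (log2 difference from wild type -1.59, SE 0.08, adjusted p = 9.6e-06). The nuclear lamin gene Lmna fell by 0.75 on the log2 scale. Tubb2b, a beta-tubulin of neurons, rose from 40 and 58 to 649 and 621, and Tubb4b, another beta-tubulin, fell by 1.06. Of 14 genes of caveolae and endocytosis 10 fell and 4 rose (median -0.51, and -0.34 in the locus deletion). Caveolae are membrane pits that flatten under tension, and their coat gene Cav1 fell from 8699 and 9309 to 3047 and 3022, with 4203 and 4554 in the locus deletion. Cav2 fell by 1.02. Both Cav1 and Cav2 lie on chromosome 6 between 0 and 20 Mb, where the bin median was -0.48 in the KO and -0.61 in the locus deletion. The muscle form Cav3 was 2 and 2 in wild type, 263 and 321 in the KO and 0 and 0 in the locus deletion. Of 34 genes of YAP and TEAD, the other tension-sensing transcription pathway, 9 (3 to 7) rose and 13 fell. The factor gene Tead4 fell by 1.10 on the log2 scale.

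Most chemokine, cytokine and NF-kappaB genes tested were higher in the KO. NF-kappaB is held in the cytoplasm by inhibitors such as the products of Nfkbia and Nfkbie, and once released it drives chemokines, cytokines and those inhibitors themselves. Of 50 listed genes 43 were tested. Of these 30 rose and 7 fell, with a median log2 difference of 1.03 and of -0.35 in the locus deletion. Among the 43, 5 were below 4 in every wild type and locus deletion library. Such genes may be in the table through the KO alone, which favours a rise. The neutrophil attractant Cxcl5 was 2412 and 2844 in wild type, 18538 and 18900 in the KO and 1171 and 1357 in the locus deletion (log2 difference from wild type 2.84, SE 0.10, adjusted p = 1.7e-06). Il1a, an alarm cytokine, was 3 and 4 in wild type, 235 and 204 in the KO and 13 and 22 in the locus deletion, and Saa3, an acute-phase apolipoprotein, 2 and 1 in wild type, 262 and 247 in the KO and 0 and 1 in the locus deletion. Nos2, the inducible nitric oxide synthase, was at 0 in both wild type libraries and 74 and 64 in the KO, at least 23.5-fold higher.

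Both ligands and inhibitors were among the risers. Cxcl1 was 133 and 150 in wild type, 2909 and 2823 in the KO and 134 and 151 in the locus deletion, and Il6 was 5 and 4 in wild type, 207 and 225 in the KO and 2 and 5 in the locus deletion. Ccl2, which draws monocytes, went from 210 and 284 to 1239 and 1291, and Cxcl10 from 49 and 67 to 553 and 644. Of the inhibitors, Nfkbie went from 82 and 72 to 557 and 521 and Nfkbia from 705 and 609 to 1037 and 1063. Not every member rose: Il1rl1, the interleukin-33 receptor, fell from 31185 and 30267 to 21424 and 21300, Tnfaip2 from 1101 and 1050 to 78 and 89, and Tnf itself was 0 and 2 in wild type and 0 and 5 in the KO. The summed macrophage and blood markers were lower in the KO (256 to 293) than in wild type (418 to 453). However, 4 of these 7 markers had a log2 difference above 0, and only 2 reached a level of 50. The part of such cells in the rise was not tested.

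The binding sequence of NF-kappaB can be looked for in front of these genes, and it is shown here because the risen ligands and inhibitors both hold it. In the 250 bases before the annotated starts (RefSeq, GRCm38.p6, some genes with several windows), the kappaB motif on either strand was present for 10 of 22 risen members with a window (45.5%), for 1 of 4 fallen members, and for 5.35% of 11864 tested genes with a window. Over all 30 tested members with a window, 11 (36.7%) held the motif, and of members that did not pass 0 of 4 did. The list was chosen by hand for NF-kappaB, so a share above that of all genes was set by the choice. It does not bear on the KO, and the groups are too small to compare risen with fallen members. Capitals mark the motif, each sequence runs 5′ to 3′ on the gene's strand, and a match is a description of the letters only.
Cxcl1, chr5:90891144-90891213, plus strand: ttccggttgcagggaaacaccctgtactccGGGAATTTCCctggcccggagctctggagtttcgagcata
Cxcl10, chr5:92348953-92349022, minus strand: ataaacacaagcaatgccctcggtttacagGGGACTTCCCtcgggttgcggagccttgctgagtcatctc
Il6, chr5:30013040-30013109, plus strand: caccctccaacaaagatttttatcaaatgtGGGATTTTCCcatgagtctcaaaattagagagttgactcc
Nfkbia, chr12:55492648-55492706, minus strand: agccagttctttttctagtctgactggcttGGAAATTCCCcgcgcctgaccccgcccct
Nfkbie, chr17:45555564-45555633, plus strand: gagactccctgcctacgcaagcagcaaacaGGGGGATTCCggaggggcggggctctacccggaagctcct
In the ligand genes the motif lay 61 (Cxcl1), 93 (Cxcl10) and 34 (Il6) bases before the start, and in the inhibitor genes 19 (Nfkbia) and 96 (Nfkbie). Cxcl10 holds another match, not shown, 149 bases before its start.

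Genes of the type I interferon response and of complement also included large risers. Of 51 interferon response genes 19 (11 to 13) rose and 8 (5 to 6) fell (median 0.64, against -0.71 in the locus deletion), and directly against the locus deletion 32 were higher and 7 lower. After centring by chromosome 26 rose and 3 fell. Gbp2, a guanylate-binding protein that attacks the vacuoles of microbes, was 23 and 23 in wild type, 792 and 828 in the KO and 5 and 4 in the locus deletion, and Trim25, a ubiquitin ligase of the RIG-I pathway, 54 and 59 in wild type, 709 and 704 in the KO and 0 and 0 in the locus deletion. Of 10 antigen presentation genes 5 (3 to 5) rose, among them the class I heavy chain gene H2-D1 (134 and 150 in wild type, 656 and 578 in the KO and 27 and 25 in the locus deletion), and 1 fell, B2m, the class I light chain on chromosome 2 (5973 and 6540 in wild type and 4158 and 4378 in the KO), a call lost after centring by chromosome (adjusted p = 0.82) and without KO library 1 or 2 (0.073 and 0.058). Of 16 complement and coagulation genes 9 rose and 4 (1 to 3) fell: C3, the central component, was 201 and 180 in wild type, 6793 and 6484 in the KO and 73 and 108 in the locus deletion (log2 difference from wild type 5.12, SE 0.17, adjusted p = 1.4e-06).

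Genes of the integrated stress response rose together. In this response, phosphorylation of the initiation factor eIF2 slows translation but lets ATF4 be made, and ATF4 turns on genes that import, make and charge amino acids. Of 36 listed genes 34 were tested, 29 rose and none fell, with a median log2 difference of 0.63. The share risen was 85.3%, against 20.6% of all genes and 24.8% of genes with a mean of at least 50. With 1 library left out, 22 to 28 rose. In the locus deletion the median against the same wild type libraries was 0.35, and directly against the locus deletion 18 members were higher in the KO and 5 lower. Atf4 went from 5512 and 5429 to 7695 and 8456, with 8817 and 8842 in the locus deletion, and Gars, the glycyl-tRNA synthetase gene, from 6250 and 6235 to 9052 and 9460.

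By subgroup, 12 of 14 transcription factors and targets rose (median 0.81), and 17 of 20 genes of synthesis, transport and charging (median 0.59). Slc7a11, the cystine importer, was 123 and 125 in wild type, 1054 and 1022 in the KO and 368 and 337 in the locus deletion (log2 difference from wild type 3.06, SE 0.09, adjusted p = 8.6e-07; against the locus deletion 1.56, adjusted p = 8.2e-06). Vldlr, a lipoprotein receptor, was 228 and 237 in wild type, 1116 and 1035 in the KO and 162 and 156 in the locus deletion. Asns, asparagine synthetase, rose from 3155 and 3243 to 4780 and 5231, and Pycr1, of proline synthesis, from 74 and 64 to 221 and 218. Gpt2, which makes alanine, rose from 444 and 442 to 1685 and 1739. The members that did not pass were Stc2, Eif4ebp1, Nars, Wars and Mars. The core of the sequence bound by ATF4 with its partners, TGATGNAA on either strand, was found in the 250 bases before the start for 9 of 26 risen members with a window (34.6%) and for 2.53% of 11864 tested genes with a window. Over all 27 tested members with a window, 9 (33.3%) held it, and only 1 member that did not pass had a window. The list was chosen by hand for this response, so a share above that of all genes was set by the choice. It does not bear on which members rose. The match is shown for 4 members that differ in function.
Slc7a11, chr3:50443642-50443709, minus strand: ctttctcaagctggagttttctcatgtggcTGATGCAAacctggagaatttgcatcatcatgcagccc
Asns, chr6:7693210-7693262, minus strand: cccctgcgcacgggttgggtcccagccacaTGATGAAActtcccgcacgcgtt
Vldlr, chr19:27216790-27216857, plus strand: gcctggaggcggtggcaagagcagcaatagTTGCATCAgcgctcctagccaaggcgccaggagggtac
Pycr1, chr11:120643814-120643881, minus strand: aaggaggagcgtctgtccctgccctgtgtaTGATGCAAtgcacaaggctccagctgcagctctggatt
Capitals mark the match, with sequences 5′ to 3′ on the gene's strand of GRCm38.p6 (RefSeq). For Vldlr it is the reverse complement that matches, and the stretch of Slc7a11 holds another match of that kind, left in lower case, 39 bases before the start.

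Other stress pathways moved both ways. Of 23 genes of the unfolded protein response 6 (3 to 4) rose and 9 (3 to 9) fell, and 10 rose after centring by chromosome: the chaperone gene Hspa5, on chromosome 2, fell from 71814 and 68554 to 47909 and 48134, with 100146 and 102284 in the locus deletion, a call that was lost after centring by chromosome (adjusted p = 0.83) and without KO library 1 or 2 (0.062 and 0.060), and Herpud1, which helps to clear misfolded proteins and is also driven by ATF4, rose from 420 and 370 to 1039 and 1087. Of 16 heat shock genes 1 (1 to 2) rose and 6 (3 to 6) fell, including Hspa4 (18260 and 18248 in wild type and 11144 and 11161 in the KO) and Hspa1b (400 and 448 in wild type and 147 and 164 in the KO). Of 27 genes of NRF2 and glutathione 7 rose and 11 (6 to 7) fell. Of 26 p53 targets 9 rose and 3 (1 to 1) fell, with the death receptor gene Fas at 17 and 14 in wild type and 325 and 345 in the KO. The metallothionein Mt1 rose from 214 and 213 to 816 and 837.

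Many cell cycle and ribosomal protein genes were lower in the KO. Of 37 genes of mitosis and G2 none rose and 21 fell (56.8%, against 19.1% of all genes and 31.9% of genes with a mean of at least 50). The median was -0.29, and 0.27 in the locus deletion, and against the locus deletion 34 were lower. With 1 library left out 14 to 17 fell, and after centring by chromosome 2 rose and 23 fell. Tpx2, a spindle factor on chromosome 2 (median -0.53), went from 6460 and 6650 to 3612 and 3613, with 8503 and 9072 in the locus deletion. Mki67, the proliferation marker, went from 27110 and 29202 to 24638 and 24126 (log2 difference -0.21, SE 0.07, adjusted p = 0.041). The call of Mki67 was lost without any 1 of the 4 libraries, at adjusted p from 0.058 to 0.26, in a fit without a trend (0.17) and when scaled without genes above 1% of a library (0.11). Cdc25b, the phosphatase that starts mitosis, is also on chromosome 2 and fell from 1813 and 1778 to 755 and 816. The calls of Tpx2 and Cdc25b were kept after centring by chromosome. Of 39 genes of DNA replication and S phase 5 (1 to 4) rose and 18 fell. Mcm4, a helicase subunit on chromosome 16, fell from 14743 and 14849 to 6042 and 6337, and Rrm2, of ribonucleotide reductase, from 5582 and 5496 to 2488 and 2475, while the helicase gene Mcm3 was 8012 and 7761 in wild type and 7462 and 7628 in the KO and did not pass. After centring by chromosome, 2 rose and 19 fell.

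Of 76 cytoplasmic ribosomal protein genes 31 fell and 4 (1 to 4) rose, with a median of -0.13 and of 0.28 in the locus deletion. This count moved with single libraries: 11 fell without KO library 1, 15 without KO library 2, 18 without wild type library 2 and 27 without wild type library 1. With all libraries the share that fell was 40.8%, against 19.1% of all genes and 31.9% of genes with a mean of at least 50. When scaled without genes above 1% of a library, the median of the list was -0.04, against 0.14 over all genes. Against the locus deletion 51 were lower and 1 higher. Rpl35 was 6403 and 7462 in wild type, 3450 and 3364 in the KO and 8732 and 8691 in the locus deletion, and Rpsa, also a laminin receptor, 28712 and 30207 in wild type, 19055 and 19549 in the KO and 33160 and 34467 in the locus deletion. Of 21 ribosome biogenesis genes 4 (0 to 3) rose and 7 (4 to 6) fell (2 rose and 8 fell after centring by chromosome), with the nucleolar Npm1 down by 0.64 on the log2 scale. Hmga2, a chromatin protein of embryonic and growing cells, fell from 14169 and 14341 to 2289 and 2367, and Ccnd1, cyclin D1, from 5911 and 5783 to 1817 and 1925. The plot of list members shows the mitosis and ribosomal lists beside the wide spread of the inflammatory lists.

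**Figure D4:**
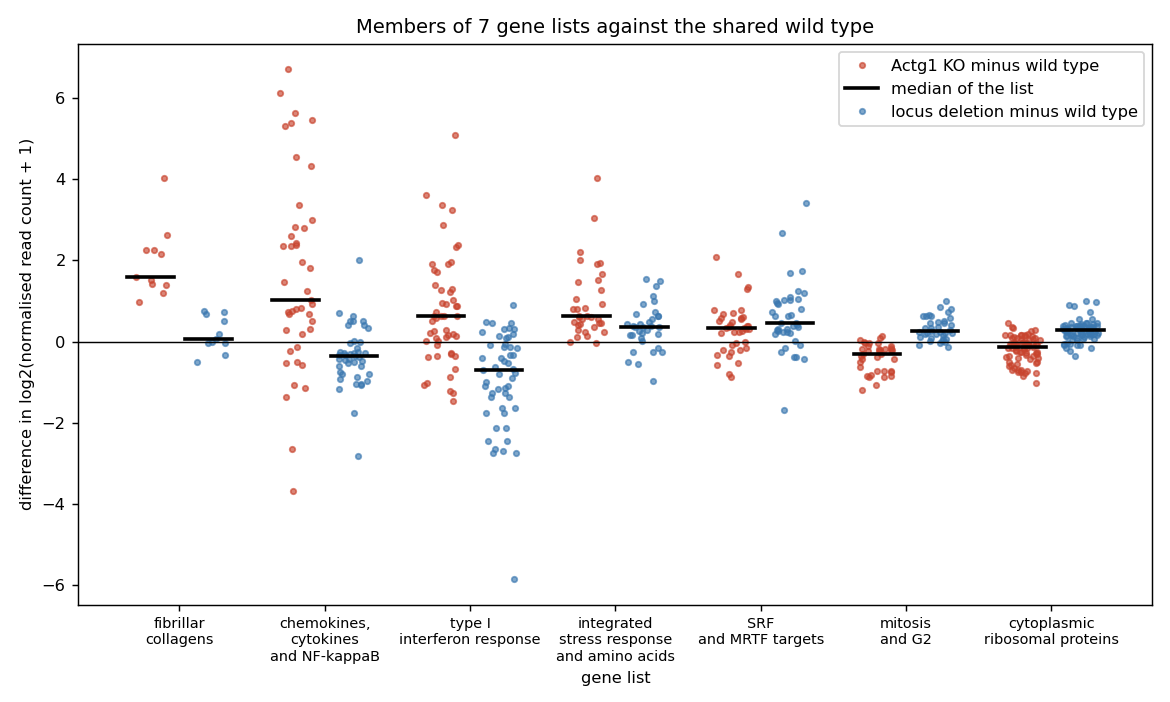
Difference from wild type in log2(normalised read count + 1) for every tested member of 7 gene lists, in the Actg1 KO (red) and the locus deletion (blue), 1 point per gene, with black bars for the list medians. Both columns use the same wild type libraries; the medians are 1.59 and 0.07 for fibrillar collagens, 0.63 and 0.35 for the integrated stress response, and -0.29 and 0.27 for mitosis.

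Metabolic lists were divided. Of 40 genes of glycolysis and hypoxia 11 (5 to 9) rose and 17 (7 to 10) fell. Of 24 glycolytic enzymes and transporters 3 rose and 12 (4 to 7) fell, with Pfkp, a phosphofructokinase, up from 136 and 142 to 834 and 883. Of 33 nuclear genes of oxidative phosphorylation 9 (1 to 3) rose and 16 (8 to 14) fell, and 7 and 5 after centring by chromosome. Of 24 cholesterol genes 3 (0 to 3) rose and 8 (5 to 6) fell. Of 19 genes of fatty acid oxidation and lipid storage 10 (5 to 7) rose and 2 (0 to 1) fell. Pdk4, which turns pyruvate away from oxidation, was 36 and 15 in wild type, 327 and 359 in the KO and 401 and 454 in the locus deletion, a rise that the locus deletion also had, and Angptl4, a lipase inhibitor, went from 54 and 57 to 321 and 308.

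Single ligands and antagonists of growth factor pathways held large changes in both directions. The counts of these lists stand against 20.6% risen and 19.1% fallen over all genes, and 24.8% and 31.9% of genes with a mean of at least 50. Among TGF-beta and activin genes 6 of 8 ligands and antagonists rose, while 7 (4 to 7) of 10 targets fell and 1 (0 to 0) rose (none after centring by chromosome). Inhbb, an activin subunit, went from 7 and 8 to 803 and 794, Tgfb1 from 179 and 149 to 370 and 351, and the activin trap Fst fell from 1328 and 1369 to 317 and 285. The feedback inhibitor Smad7 fell from 2298 and 2065 to 903 and 990. In the BMP list (11 (7 to 10) of 24 rose and 5 fell) the antagonist gene Grem1, on chromosome 2, fell from 12928 and 12520 to 8591 and 8372 (not after centring by chromosome, adjusted p = 0.44), and the BMP target Id2 rose from 482 and 559 to 1393 and 1608.

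In the IGF list 10 of 20 rose and 5 fell, with Igf1 at 3 and 3 in wild type and 113 and 99 in the KO and the protease gene Htra1 at 56 and 56 in wild type, 967 and 1002 in the KO and 12 and 9 in the locus deletion, beside Igfbp5 above. Of 46 WNT genes 11 (7 to 8) rose and 13 fell (23.9% and 28.3%), near the shares over genes with a mean of at least 50. The nuclear factor gene Lef1 was 9 and 10 in wild type, 293 and 302 in the KO and 0 and 0 in the locus deletion. The secreted antagonist Sfrp2 was 74 and 94 in wild type, 5 and 9 in the KO and 287 and 278 in the locus deletion. Of 24 FGF and ERK feedback genes 6 (2 to 4) rose and 9 fell (25% and 37.5%). Fgf7, the keratinocyte growth factor of stroma, rose 2.08-fold (2515 and 2688 in wild type and 5432 and 5401 in the KO), and the ERK feedback genes Dusp5 and Etv5 fell by 1.94 and 1.84 on the log2 scale. The neurotrophin Bdnf fell from 3401 and 3287 to 525 and 594, with 2534 and 2809 in the locus deletion.

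Guidance cues are known from growing axons and are also used by fibroblasts in migration. Of 56 such genes 17 (10 to 12) rose and 20 fell. Sema3c was 18187 and 18099 in wild type, 3398 and 3490 in the KO and 7712 and 9339 in the locus deletion, and Sema3d 859 and 823 in wild type, 36 and 37 in the KO and 369 and 451 in the locus deletion: in both the locus deletion lay between wild type and KO. Slit2 fell from 14905 and 13505 to 6356 and 6775, to the level of the locus deletion (6674 and 6699), Slit3 rose from 13 and 9 to 435 and 392, and the Slit receptor gene Robo2 was 43 and 40 in wild type, 968 and 1001 in the KO and 0 and 1 in the locus deletion. Of 17 cadherin genes 4 rose and 8 fell, with Cdh6 at 2 and 0 in wild type, 384 and 418 in the KO and 0 and 0 in the locus deletion. The stretch-gated channel gene Piezo2 fell from 881 and 827 to 49 and 53.

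Hox genes, which mark the position a cell came from along the body and the limb, differed by cluster. Of 39 listed genes 33 are in the table, and 18 of them were below 4 in every wild type and locus deletion library. Genes this low elsewhere may be in the table through the KO alone, which favours a rise, so their counts are a description. The same holds for 7 of the 46 WNT genes, 7 of the 37 other patterning factors, 3 of the 8 gap junction genes and 3 of the 6 cardiac muscle markers. It also holds for 1 or 2 members of several other lists, such as 2 of the 20 IGF genes and 2 of the 36 proteases and inhibitors. Of 11 genes of the Hoxa cluster, on chromosome 6, 1 (0 to 1) rose and 4 (2 to 4) fell. Hoxa13 fell from 679 and 636 to 177 and 169. Hoxd13, at the end of its cluster on chromosome 2, fell from 2487 and 2366 to 681 and 664, with 2234 and 2406 in the locus deletion (log2 difference from wild type -1.85, SE 0.07, adjusted p = 2.0e-06). Evx2, the gene next to the Hoxd cluster, fell from 149 and 132 to 1 and 1.

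Hoxb and Hoxc genes were near 0 outside the KO. The 9 Hoxc genes had values from 45 (Hoxc13) to 1250 (Hoxc6) in the KO and of at most 3 in wild type. Hoxc6 was 3 and 1 in wild type, 1250 and 1212 in the KO and 0 and 0 in the locus deletion, and Hoxc10 was 0 in all other libraries and 107 and 110 in the KO, at least 36.9-fold higher than wild type. The 7 Hoxb genes of 10 listed were led by Hoxb6 (2 and 3 in wild type, 358 and 368 in the KO and 0 and 0 in the locus deletion), and Hoxd8 was 7 and 6 in wild type and 314 and 340 in the KO. Among 37 other patterning factors 13 (5 to 9) rose and 14 fell. Lmx1b, the factor of the dorsal limb, fell from 1033 and 920 to 133 and 167, Prrx1, of limb mesenchyme, from 16519 and 16547 to 9540 and 9151, and Sox5 rose from 129 and 129 to 1610 and 1560.

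**Figure D5:**
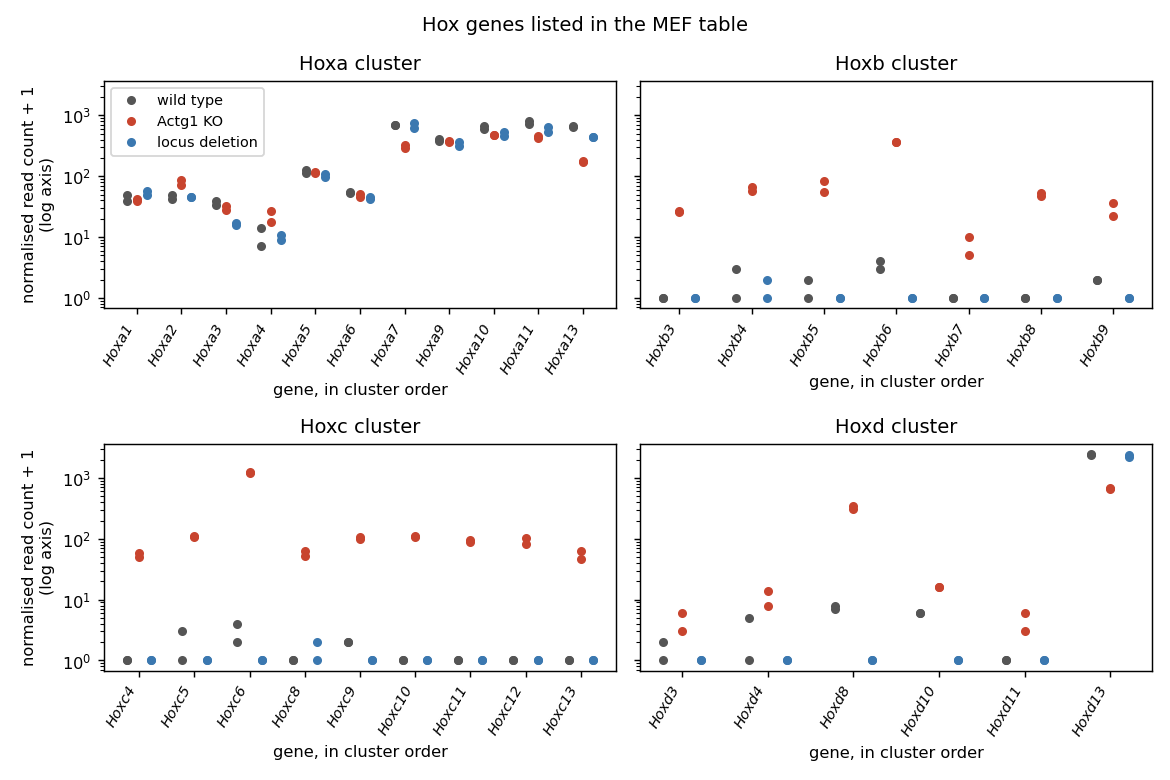
Normalised read counts plus 1 on a log axis for the 33 Hox genes in the MEF table, 1 point per library, by cluster and in cluster order, in wild type (grey), Actg1 KO (red) and locus deletion (blue). The Hoxb and Hoxc genes are near the bottom of the axis outside the KO, most Hoxa genes lie close together in the 3 groups, and Hoxd13 lies at 664 and 681 in the KO against 2234 to 2487 elsewhere.

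Among 7 tested germline genes, 4 rose and none fell, Tex101 from 3 and 0 to 108 and 121. Rhox5, a homeobox gene of the X chromosome, went from 250 and 250 to 6051 and 5800. Sox2, the pluripotency and neural factor, was 44 and 32 in wild type, 1326 and 1306 in the KO and 0 and 0 in the locus deletion, while only 4 of 10 embryonic stem cell markers are in the table. Of 18 imprinted genes 9 (5 to 8) rose and 3 fell: Peg10 was 3678 and 3353 in wild type, 9934 and 10651 in the KO and 8250 and 8249 in the locus deletion, and Igf2 10 and 9 in wild type and 63 and 92 in the KO. Xist, the RNA of the inactive X, rose from 17764 and 18917 to 42196 and 39269, with 21646 and 17484 in the locus deletion.

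The series concerns the fate of mutant mRNA, so the genes of mRNA decay were listed too. Of 15 genes of nonsense-mediated decay 2 (0 to 0) rose and 2 (0 to 1) fell (4 fell after centring by chromosome), and with the general decay genes 7 (0 to 2) of 37 rose and 9 (4 to 5) fell. Of 17 transcripts known as targets of that pathway 4 (1 to 3) rose and 9 fell, Zfas1 by 1.34 on the log2 scale. Of 17 genes of the COMPASS complexes, which methylate lysine 4 of histone H3, 3 (1 to 3) rose and 7 (2 to 6) fell, and 4 fell after centring by chromosome. Kmt2c rose from 2478 and 2556 to 3729 and 3814, and Dpy30, a core subunit, fell from 606 and 677 to 393 and 404.

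Families taken from gene symbols gave 175 groups of at least 10 tested genes. The Abca family of lipid transporters had the highest share of risers, 10 (6 to 10) of 13 (median log2 difference 2.00), followed by the Ccl chemokines, 8 of 11 (2.37), the Pcdh protocadherins, 7 (4 to 6) of 10 (1.26), the Adamts proteases, 9 (4 to 6) of 14 (1.13), and the Col collagens, 25 of 39 (1.19). The Sox factors had 6 of 10 and the TNF receptors (Tnfrsf) 9 of 16. The highest share of falls was that of the Hspa chaperones, 9 of 13, followed by the oxysterol-binding Osbpl genes, 6 of 10, the symbols that start with Sf, many of splicing factors, 6 (3 to 5) of 10, and the centrosomal Cep genes, 20 (10 to 14) of 36.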

How the data were processed

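Total RNA of MEFs was extracted with a miRNeasy micro kit and sequenced as SMARTer stranded total RNA libraries, per the labels' protocols. The genome build mm10 (GRCm38) and the tools DESeq2 1.14.1, featureCounts 1.6.0 of Subread, STAR 2.5.3a and FastQC appear in the submitters' processing notes without role or order. Use of the strand, and the treatment of reads that match several genes, are not given in the sources used here, so genes with near copies (Actg1, Acta2, Actg2, H2-D1, Hspa1b, Tubb2b, ribosomal protein genes) or antisense partners (Xist, Zfas1) are uncertain to that degree. By their spacing, the authors' deposited whole numbers are gene counts rescaled by a factor for each library and then rounded (handled as a score), so no count test was used. Each read is worth an estimated 0.879 to 1.10 units. Libraries of a group differed by more than counting noise (median chi-square per gene 0.949 to 2.23, against 0.455 from counting alone), so none was taken as a repeat.

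Log2(value + 1) was fitted in limma 3.58.1 (R 4.3.3) with group means over the 6 MEF libraries, empirical Bayes with a trend (residual degrees of freedom 3, prior 4.57), two-sided, and Benjamini-Hochberg adjustment over 21589 genes with a mean of at least 1. Differences on this scale understate changes of low genes. Where both libraries of 1 group were 0, the fold is a bound from a floor of 3 reads per library, which covers counting error only, and with a group mean up to about 3 levels stand in place of a fold. Symbols and positions are from GENCODE M21, which held 21573 of the 21615 genes. The test was first tried on simulated data. The members and the 79 gene lists were chosen with earlier results of these data known, and lists were given no test of their own. Named genes are Actg1, Actb, its neighbours, the 15 largest rises and falls with a mean of at least 50, and per list up to 4 of the largest passed changes and 3 of the highest levels. Outside this rule, Asns, Ccl2, Col2a1, Col8a1, Cxcl1, Cxcl10, Eif4ebp1, Gpt2, Hoxa13, Hoxc13, Hoxd8, Mars, Mmp2, Nars, Nfkbia, Nfkbie, Postn, Pycr1, Stc2, Thy1, Tnf, Tnfaip2, Tnxb and Wars were chosen after their values were seen. Some genes that the rule names, and 1 list, are not reported here. Alternatives were other pseudocounts, filters, scalings, no trend, a replicate block, 2 groups only, each library left out and centring by chromosome. Figures were drawn in Python 3.11.15 with matplotlib 3.10.9.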

Additional observations from a re-analysis of the deposited data

How the results depend on the processing

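With 1 library left out, the count of genes that differed between KO and wild type (4455 higher, 4126 lower, 8581 in all) ran from 2061 to 3059 higher, 2270 to 2823 lower and 4384 to 5879 in all. Against the locus deletion (5286 higher, 4468 lower, 9754 in all) it ran from 2936 to 4637, from 2734 to 3786 and from 5759 to 8205. Such fits take the spread of the lone library to be that of the other groups. All other settings kept these counts within 1.5 times: for KO against wild type 3427 to 5438 higher and 3072 to 4236 lower, with the low ends from the fit without a trend, and 59.4% of the called genes higher when scaled without genes above 1% of a library, against 51.9%. Centring by chromosome, chosen after seeing the data, gave 4696 higher and 3447 lower, and 6638 of these 8143 genes were also called without it. The labels number the libraries 1 and 2 in each group, but deviations of same-numbered libraries correlated at -0.302 (wild type and KO), -0.211 and 0.214, so the numbers were not taken to pair them. A fit with the replicate number as a block called 4217 higher and 3942 lower, and 8028 of these 8159 were called without the block. Against the locus deletion it called 5099 higher and 4322 lower. Of the 176 genes named, 165 passed the test and 160 of these kept their call in every setting. The others are Mki67, Bgn, B2m, Hspa5 and Grem1, given above. Mki67 was also lost with the block (adjusted p = 0.055). Without a trend, the risen SRF and MRTF targets numbered 15 (24 with it), the risen actin regulators 9 (15), the fallen cytoplasmic ribosomal proteins 16 (31), the fallen glycolysis and hypoxia genes 9 (17), the fallen interferon response genes 5 (8), the fallen complement and coagulation genes 2 (4), those of oxidative phosphorylation (nuclear) 2 risen and 10 fallen (9 and 16) and those of mRNA decay 1 and 4 (7 and 9). Scaling without the abundant genes gave 9 risen genes of DNA replication and S phase (5), 8 of cytoplasmic ribosomal proteins (4) and 12 of mRNA decay (7). No named gene that passed changed direction. Of those that did not pass, these were opposite to their sign in all libraries: Nars at 0.047 on the log2 scale with scaling without the abundant genes and 0.22 after centring, Wars at 0.072 and 0.31 in the same settings, Mcm3 at 0.020 with that scaling and Eif4ebp1 at -0.013 after centring. With 1 library left out Nars ran from -0.078 to 0.0046, Wars from -0.090 to 0.066 and Tnf from -0.29 to 1.79. The cause was not tested. With 2 libraries per group, changes near the threshold depend on single libraries, and at values of a few reads a change could not be detected at this depth.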

Other observations

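Lists not described above changed as follows. Of 32 immediate early genes, which answer to serum and stretch within the hour, 12 (7 to 10) rose and 8 fell: Klf2, a factor induced by flow, fell from 204 and 182 to 28 and 32. Of 13 Notch genes 4 (1 to 4) rose and 2 (0 to 1) fell, with the ligand gene Dll1 at 18 and 23 in wild type, 108 and 113 in the KO and 1 and 2 in the locus deletion, and 8 rose and 1 fell after centring by chromosome. Of 14 hedgehog genes 5 (2 to 4) rose and 4 (1 to 4) fell: the ligand trap Hhip fell from 119 and 127 to 2 and 2. Of 33 genes of PDGF, VEGF, EGF and related ligands 12 (7 to 11) rose and 13 fell, with Pdgfd at 189 and 235 in wild type and 23 and 20 in the KO. Of 34 clustered protocadherin genes tested of 47 listed 9 (1 to 7) rose and 3 (0 to 1) fell, and 14 and 1 after centring by chromosome. Of 12 regulators of the epithelial to mesenchymal transition 2 rose and 6 fell, and 7 and 3 after centring.

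Of 47 replication-dependent histone genes 12 (3 to 8) rose and 4 (0 to 4) fell, and 23 and 2 after centring by chromosome. Hist1h1a, a linker histone gene, was 19 and 28 in wild type, 897 and 907 in the KO and 2 and 2 in the locus deletion. Of 31 proteasome genes 3 (0 to 3) rose and 9 (5 to 8) fell (5 fell after centring by chromosome), of 29 genes of autophagy and lysosomes 4 (2 to 4) and 10 (6 to 7), and of 7 mitochondrially encoded RNAs none rose and 3 (0 to 5) fell. Of 20 targets of retinoic acid and hormones 8 (5 to 9) rose and 3 (1 to 2) fell, with Ahr, the dioxin receptor gene, up from 395 and 383 to 2193 and 2182. Of 19 clock genes 5 (2 to 5) rose and 6 fell, with Nfil3 up by 1.82 on the log2 scale and Nr1d2 down by 0.80. Of 8 gap junction genes 3 (1 to 3) rose and 2 (0 to 1) fell, among them Gjb2, a connexin, at 2 and 0 in wild type, 276 and 302 in the KO and 0 and 0 in the locus deletion.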
